A study of Mus musculus with 8 samples.

Results

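Lysosomal genes were read in RNA sequencing libraries of regulatory T cells (Tregs), the Foxp3-expressing CD4+ T cells that restrain immune responses. The set held 41 genes, picked by symbol from the 55011 gene symbols of the count table: 8 lysosomal membrane proteins, 10 proteases, 10 glycosidases, lipid enzymes and cofactors, 11 subunits or accessory proteins of the V-ATPase, and the transcription factors Tfeb and Tfe3. All 41 were found, and 40 carried enough counts to be tested. Tregs were double-sorted, 1000 cells to a library, from skin or spleen of mice described as 2 weeks old in the design text and as day 13 in the sample titles, with no treatment. The mice were Pparg+/+ Foxp3-Cre (WT below) or Ppargf/f Foxp3-Cre (KO below), and each of the 4 combinations of genotype and tissue had 2 libraries. Both genotypes carried Foxp3-Cre, so Cre was present in the controls too, and the floxed Pparg is a target only in cells where Foxp3 drives Cre. The labels used here do not say whether a library held 1 animal or several. Nor do they say that the 2 libraries of a group came from separate animals. The p-values therefore measure the spread between libraries, which may be technical. Sex-linked genes held part of the deviation that same-numbered libraries shared (values at the end), and a part of sex in the spread was not tested.

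Lysosomes are acidic organelles that digest proteins, glycans and lipids delivered by endocytosis and autophagy. The V-ATPase pumps protons into them, hydrolases with acidic optima (cathepsins, glycosidases, lipases) do the digestion with the help of activator proteins, and heavily glycosylated membrane proteins such as LAMP1 and LAMP2 line the inside. Tfeb and Tfe3 encode related factors that bind E-box sequences of the CLEAR type near many lysosomal genes and raise them together when they enter the nucleus. Pparg encodes PPARγ, a nuclear receptor for fatty acid ligands that Tregs of some non-lymphoid tissues express, and the study asked what its loss changes in the Treg transcriptome.

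Start-site sequences were read because Tfeb and Tfe3 belong to the set. RefSeq windows from 250 bases before to 50 bases after a gene's start (GRCm38.p6, the patch release of the mm10 build) were matched by symbol for 33 of the 41 genes. The E-box CACGTG stood in a window of 11 of these 33 genes (33.3%), against 10.2% of all measured genes with a window and 7.15% of all 32851 windows. The CLEAR core TCACGTGA, which contains the E-box, stood in 6 of 33 (18.2%), against 1.69% of measured genes with a window and 0.974% of all windows. Both motifs read the same on either strand. The 6 genes with the CLEAR core were Atp6v0d1, Atp6v1a, Ctsa, Ctsd, Gla and Mcoln1. The windows printed here, 5′ to 3′ on the gene's strand, are those of Lamp1, Ctss and Gm2a, which passed a genotype test, and Gla and Mcoln1, which hold the CLEAR core and moved in opposite directions between tissues. The windows are chr8:13158911-13159210 (+) for Lamp1, chrX:134600956-134601255 (-) for Gla, chr8:3500269-3500568 (+) for Mcoln1, chr3:95526536-95526835 (+) for Ctss and chr11:55097735-55098034 (+) for Gm2a. Capitals mark the CLEAR core, or the E-box where the core is not complete.
Lamp1: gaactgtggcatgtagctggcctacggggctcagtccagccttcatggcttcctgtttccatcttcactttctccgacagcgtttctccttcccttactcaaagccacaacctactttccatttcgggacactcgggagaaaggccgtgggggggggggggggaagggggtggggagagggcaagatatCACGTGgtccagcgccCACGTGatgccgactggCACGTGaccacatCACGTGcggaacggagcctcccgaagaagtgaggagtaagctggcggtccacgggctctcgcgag
Gla: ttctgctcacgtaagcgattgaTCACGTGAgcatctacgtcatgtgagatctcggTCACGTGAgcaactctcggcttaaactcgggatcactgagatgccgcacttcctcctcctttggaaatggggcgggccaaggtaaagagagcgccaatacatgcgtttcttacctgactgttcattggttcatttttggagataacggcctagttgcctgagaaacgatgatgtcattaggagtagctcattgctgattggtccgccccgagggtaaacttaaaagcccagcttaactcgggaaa
Mcoln1: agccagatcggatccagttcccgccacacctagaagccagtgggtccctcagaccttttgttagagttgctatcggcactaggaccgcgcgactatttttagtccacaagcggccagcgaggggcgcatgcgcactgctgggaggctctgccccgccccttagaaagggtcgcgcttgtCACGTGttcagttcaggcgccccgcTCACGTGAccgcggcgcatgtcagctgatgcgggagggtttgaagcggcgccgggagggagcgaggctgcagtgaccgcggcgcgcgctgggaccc
Ctss: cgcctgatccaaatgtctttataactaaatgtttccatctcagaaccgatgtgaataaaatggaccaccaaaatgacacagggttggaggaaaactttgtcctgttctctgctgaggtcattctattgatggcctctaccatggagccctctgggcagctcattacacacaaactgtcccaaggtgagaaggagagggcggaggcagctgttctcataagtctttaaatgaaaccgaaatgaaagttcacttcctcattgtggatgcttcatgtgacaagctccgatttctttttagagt
Gm2a: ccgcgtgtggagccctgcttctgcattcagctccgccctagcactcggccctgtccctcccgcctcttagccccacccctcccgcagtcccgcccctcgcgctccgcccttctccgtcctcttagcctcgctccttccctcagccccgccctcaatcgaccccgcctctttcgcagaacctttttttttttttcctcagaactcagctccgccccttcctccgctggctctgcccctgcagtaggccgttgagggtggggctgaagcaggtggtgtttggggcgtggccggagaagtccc
Lamp1 had 4 E-boxes, the first with its first base at position -61 from the start, and no CLEAR core. Gla had 2 CLEAR cores, with their E-boxes at -227 and -194, and Mcoln1 had an E-box at -71 and a CLEAR core whose E-box lay at -45. The windows of Ctss and Gm2a held neither sequence of letters. In GENCODE M21, used for exon lengths, Gm2a starts at position 55098115, past the end of its window. The bases next to that start were therefore not read. A match here is a string of letters, not a measured binding site.

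Libraries held 3115832 to 4466963 counts, and the 41 genes together took 0.841 and 0.913% of the counts from WT skin, 0.771 and 0.78% from KO skin, 0.683 and 0.693% from WT spleen, and 0.644 and 0.654% from KO spleen. Without Gm2a and Laptm5, which led the set in skin, the share was 0.445 to 0.498% in every library. Levels below are CPM, counts per 1000000 of the TMM-adjusted library size, and a count of 0 allows up to 0.698 to 1.06 CPM (3 counts, counting error only, and PCR duplicates were not told apart). Pparg fell in KO of both tissues, from 75.7 and 59.8 CPM to 8.46 and 13.3 in skin and from 22.5 and 12.3 to 2.16 and 1.66 in spleen. Foxp3 was present in every library, at 174 to 380 CPM. In CPM of the total count, 14 macrophage and monocyte markers, cells rich in lysosomes, summed to 9.40 and 5.78 for WT skin, 10.2 and 16.5 for KO skin and 6.30 to 33.0 for spleen. The highest of these markers was Csf1r, at up to 10.2 (WT spleen replicate 2), and Lyz2 was at 1.96 or less. A list of 10 dendritic and Langerhans cell genes summed to 35.3 to 191, mostly Epcam except in KO skin replicate 1 (Epcam 93.8 of 191). There the class II genes H2-Aa and H2-Ab1 reached 38.1 and 43.7, against 6.16 or less elsewhere. Cd79b led a list of 7 B cell genes (sums of 17.7 to 50.2), while the sums for 7 CD8 T and NK cell genes were 8.99 to 31.8 and those for 6 keratinocyte genes 3.35 or less. The 6 fibroblast genes summed to 7.29 to 15.4 in skin and 1.18 to 5.15 in spleen, mostly Col1a1, with Pdgfra and Lum at 0 in all 8 libraries. The 9 mast cell and granulocyte genes summed to 14.3 to 20.2 in skin, mostly Kit, and 0.927 to 4.03 in spleen. Of that list, Mcpt4, Tpsb2, Ms4a2 and S100a8 were at 0 in all 8 libraries. The 6 endothelial genes summed to 81.2 to 126 in skin and 294 to 403 in spleen, nearly all Pecam1. In such bulk libraries, fewer cells that express a gene and less RNA per cell cannot be told apart.

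Per kilobase of exon, the most abundant transcripts of the set in WT skin Tregs were Gm2a (mean 674 CPM per kb), Laptm5 (429), the carboxypeptidase gene Ctsz (172), the aspartic protease gene Ctsd (149) and Ctss (105). In WT spleen the order began with Laptm5 (398), Ctss (176), Ctsd (124) and Gm2a (109). Gm2a encodes the activator that presents ganglioside GM2 to hexosaminidase A, and Laptm5 a lysosomal membrane protein of blood cells. At the low end stood Tfeb (3.52 in WT skin, 2.09 in WT spleen) and the cysteine protease gene Ctsl (2.03 and 1.61). Mcoln1 was as low as Ctsl in WT skin (2.03), and Ctsh was lower still in WT spleen (0.292). Lamp1 had 28.7 CPM per kb in WT spleen but 5.61 to 7.69 in the other groups, where Lamp2 had 20.2 in WT skin and 8.47 in KO spleen. Cd63, a tetraspanin of lysosomes, had 0 counts in 6 libraries and 1 in KO skin replicate 1 and KO spleen replicate 2. Of its 25-base words, the length of the reads, 17.6% also occur in transcripts of other genes, mostly Cd63-ps, which had 1 count or fewer per library. It was the gene that could not be tested. Ctsd shares 33.4% of such words with Gm49369, and Ctsl 26.0% with its antisense partner Gm47123, both at 0 counts in every library, so how reads were divided there cannot be told.

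**Figure D1:**
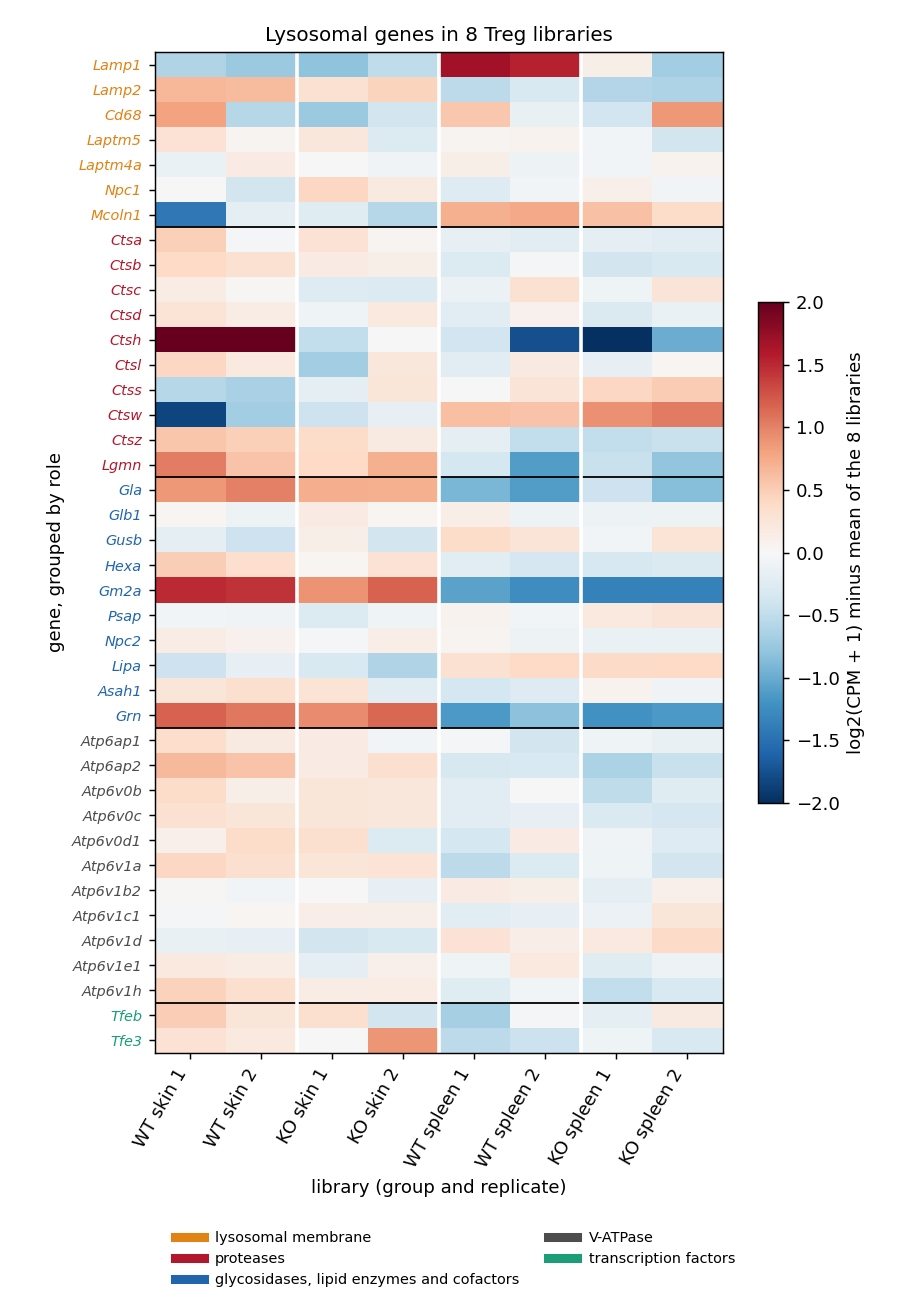
Heat map of the 40 tested lysosomal genes (rows, grouped by role) in the 8 libraries (columns, 2 per group), coloured by log2(CPM + 1) minus the gene's mean over the 8 libraries, with colours saturating at 2 in either direction. Gm2a, Grn, Gla and Lgmn are red in all 4 skin libraries and blue in all 4 spleen libraries, Lamp1 is darkest red in the 2 WT spleen libraries, and Ctsh is darkest red in the 2 WT skin libraries.

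The first comparison asked which lysosomal genes differ between KO and WT Tregs of the skin. Ctss, the protease that trims invariant chain from MHC class II molecules, rose in KO. Ctsh, an aminopeptidase cathepsin, and Gm2a fell. Calls used edgeR's quasi-likelihood test at a Benjamini-Hochberg adjusted p under 0.05 over 12414 genes. Of the 40 genes tested, 1 was called higher and 2 lower, where 0.306% of all genes were called higher and 0.588% lower. Upper-quartile scaling left 1 call in each direction (over all genes 52 of 116 higher, against 38 of 111 under TMM), since Gm2a then had an adjusted p of 0.0767.

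Ctss stood at 146 and 139 CPM in WT skin and at 191 and 259 CPM in KO skin. Both KO libraries were above both WT libraries, and replicate 2 of KO was the higher. The log2 fold change was 0.66 ± 0.147 (SE, n = 2 against 2, edgeR adjusted p = 0.0409). Leaving out KO skin replicate 2 gave 0.42 (edgeR adjusted p = 0.392), and it also missed the threshold without WT skin replicate 1 (0.201), without WT skin replicate 2 (0.1) and in limma-voom (0.067). The macrophage and monocyte markers were likewise higher in KO skin, at 10.2 and 16.5 CPM against 9.40 and 5.78, and H2-Aa and H2-Ab1 were high in KO skin replicate 1, the KO skin library with less Ctss. Their part in the Ctss result was not tested.

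Ctsh stood at 54.5 and 17.8 CPM in WT skin (221 and 50 counts), and KO libraries held 2.11 and 3.32 CPM (8 and 11 counts). The groups did not overlap, but the WT libraries differed widely from each other. The log2 fold change was -3.52 ± 0.703 (edgeR adjusted p = 0.0387). With WT skin replicate 1 left out it was -2.50 (edgeR adjusted p = 0.401), and the call was also lost without KO skin replicate 1 (0.382), without KO skin replicate 2 (0.281), in DESeq2 (0.184) and in limma-voom (0.0529). Both WT skin libraries had lower summed macrophage and monocyte markers (9.40 and 5.78 CPM) than the KO libraries (10.2 and 16.5), but within WT the order was that of Ctsh. Among the skin libraries, WT replicate 1 also had the most Cd68 (8.14 CPM, against 2.11 to 3.02), Itgax (3.13, against 1.12 or less) and Adgre1 (1.79, against 0). Other genes of these marker lists ran the opposite way. Csf1r was at 0.224 in WT replicate 1 against 3.16 and 1.68 in KO, and Cd209a at 0 against 8.99 and 3.64. All these markers were at low levels. Their part in the Ctsh result was not tested.

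Gm2a fell from 2820 and 2740 CPM in WT skin to 1870 and 2270 CPM in KO skin, so all 4 libraries were high and the groups did not overlap. The log2 fold change of -0.42 ± 0.0982 lay at the threshold (edgeR adjusted p = 0.0499), and 8 of 16 alternatives ended the call, with adjusted p up to 0.415 without KO skin replicate 1. Outside the threshold came Ctsw and Atp6ap2. Ctsw, a cathepsin known from cytotoxic lymphocytes, had 24.9 and 56.2 CPM in WT skin and 68.4 and 81.8 CPM in KO skin. The groups did not overlap, and the log2 fold change was 0.91 ± 0.282 (edgeR adjusted p = 0.231). Leaving out WT skin replicate 2, the higher of the WT libraries, gave 1.57 (edgeR adjusted p = 0.000375), and leaving out WT skin replicate 1 gave 0.41 (edgeR adjusted p = 0.616). CD8 T and NK cell markers summed to 31.8 and 8.99 in WT skin and 26.7 and 28.9 in KO skin, lowest in the WT library with the more Ctsw. Prf1 alone of that list had the order of Ctsw between genotypes, with 8.95 and 3.53 CPM in WT and 10.2 and 12.3 in KO. The other genes of the list overlapped between genotypes, such as Cd8b1 with 13.7 and 2.57 in WT and 6.8 and 6.44 in KO. Their part in the Ctsw difference was not tested. Atp6ap2, an accessory protein of the V-ATPase also known as the prorenin receptor, had 237 and 225 CPM in WT skin and 169 and 189 CPM in KO skin, with a log2 fold change of -0.37 ± 0.129 (edgeR adjusted p = 0.259).

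Across the set, log2 fold changes in skin had a median of -0.16, against 0.007 over all genes tested, and 31 of 40 (77.5%) lay below 0, against 48.9% of all genes. By role, 8 of 10 proteases, 8 of 10 glycosidases, lipid enzymes and cofactors, 10 of 11 V-ATPase genes and 4 of 7 membrane protein genes lay below 0. Both KO libraries stood below both WT libraries for 16 genes and above them for 4, where 19.8% of all genes stood below and 20.1% above. Of the 16, 7 were V-ATPase genes, none of which passed the test (log2 fold changes of -0.37 to 0.11 over all 11). These genes share libraries and scaling and are not independent measurements. Other lysosomal lists, taken up below, leaned less in skin. Of 35 further lysosomal enzymes and membrane proteins, 57.1% lay below 0 (median -0.024). The share was 71.4% of 7 further V-ATPase subunits (-0.057) and 58.8% of 17 genes of the mTORC1 platform and Tfeb regulators (-0.062). It was 50% of 12 sorting genes (0.023) and 52.4% of 21 autophagy genes (-0.022).

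**Figure D2:**
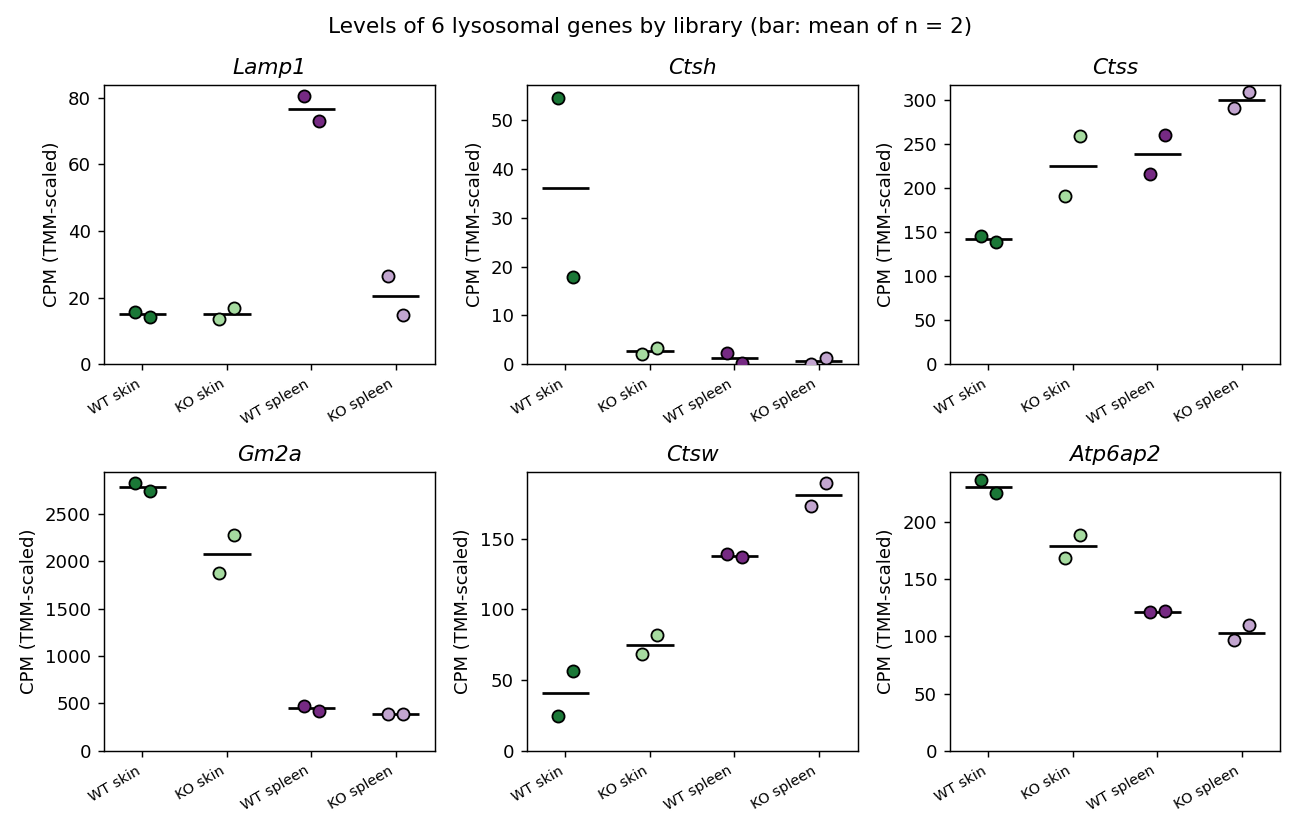
CPM (linear axis from 0) of Lamp1, Ctsh, Ctss, Gm2a, Ctsw and Atp6ap2 in each library, with the bar at the mean of the 2 libraries of a group. Lamp1 is high in WT spleen (80.5 and 73.0), Ctsh in WT skin (54.5 and 17.8), and Ctss is lowest in WT skin (146 and 139).

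In the spleen, Lamp1 was the only lysosomal gene called between the genotypes. The WT libraries held 80.5 and 73.0 CPM (344 and 255 counts) and the KO libraries 26.4 and 14.7 CPM (98 and 62 counts). The WT libraries were close to each other and both were far above the KO libraries, for a log2 fold change of -1.88 ± 0.267 (edgeR adjusted p = 0.00553). The call was lost when KO spleen replicate 2 was left out (-1.52, edgeR adjusted p = 0.0845) but held in the other 15 alternatives, where the log2 fold change was between -2.33 and -1.80. In skin, Lamp1 stood at 15.8 and 14.2 CPM in WT and 13.5 and 16.9 in KO, a log2 fold change of 0.007 ± 0.303 (edgeR adjusted p = 1.0). Lamp1 (chr8:13159161-13175338, + strand, GRCm38) overlaps exons of Grtp1 on the opposite strand by 249 bases, and the strand setting of the counting is not given in the sources used here. Grtp1 had 8 and 8 counts in spleen of WT and 19 and 21 in that of KO. The part of this overlap in the Lamp1 result was not tested.

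No lysosomal gene was called higher in KO spleen and 1 was called lower, against 0.00806% and 0.274% of all genes. Next in order of p were Ctss, Gm2a and Ctsb. Ctss had 216 and 261 CPM in WT and 291 and 309 in KO, for a log2 fold change of 0.33 ± 0.143 (edgeR adjusted p = 0.578). For Gm2a the values were 476 and 423 CPM in WT and 393 and 391 in KO (-0.20 ± 0.0999, edgeR adjusted p = 0.67). The cysteine protease gene Ctsb had 407 and 487 CPM in WT and 381 and 399 in KO (-0.20 ± 0.108, edgeR adjusted p = 0.723). For all 3 genes the KO libraries lay on 1 side of the WT libraries, but none passed the test. The median over the set was -0.076 (all genes -0.002) and 24 of 40 genes lay below 0, against 50.4% of all genes. Libraries did not overlap for 14 genes that were lower and 7 that were higher in KO, where the background was 19.9% and 18.8%.

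Averaged over both tissues, a comparison that shares its libraries with the preceding ones, 1 gene was called higher in KO and 2 lower, against 0.298% and 0.491% of all genes. Ctss had a log2 fold change of 0.49 ± 0.103 (edgeR adjusted p = 0.0295), and KO was above WT in both tissues. Lamp1 had -0.94 ± 0.201 (edgeR adjusted p = 0.0348), which rests on the spleen libraries. Gm2a had -0.31 ± 0.0701 (edgeR adjusted p = 0.0449). Each call was lost in some alternatives, 5 of 15 for Ctss, 7 of 15 for Lamp1 and 11 of 15 for Gm2a, with adjusted p up to 0.163, 0.163 and 0.227. Upper-quartile scaling again left 1 call in each direction. Atp6ap2 came next with -0.30 ± 0.092 (edgeR adjusted p = 0.195).

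Whether the genotype effect differed between tissues was tested by the interaction term. No lysosomal gene passed, against 0.0967% of all genes, and 1 gene, Lamp1, had an unadjusted p under 0.05. For Lamp1 the skin effect minus the spleen effect was 1.89 ± 0.401 (edgeR adjusted p = 0.0717). DESeq2 called it (adjusted p = 0.0274), as did edgeR without the low-count filter (0.000589) and without KO spleen replicate 1 (0.00575), whereas limma-voom called no gene of the set, and over all alternatives its adjusted p was 0.000589 to 0.27. Asah1, the acid ceramidase gene, followed with -0.53 ± 0.254 (edgeR adjusted p = 0.529). It stood at 92.7 and 98.2 CPM in libraries from WT skin, 95.1 and 67.6 from KO skin, 61.3 and 65.8 from WT spleen, and 82.6 and 74.7 from KO spleen. In skin, 1 KO library lay between the WT values and the other below them, whereas both KO spleen libraries were above both WT ones. Psap, the precursor of the saposin activator proteins, had -0.34 ± 0.176 (edgeR adjusted p = 0.577), and Ctsh -2.79 ± 1.68 (0.67). For Ctss and Gm2a the adjusted p was 0.679 and 0.673, so Ctsh, Ctss and Gm2a, called in skin and not in spleen, were not shown to respond differently in the 2 tissues.

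**Figure D3:**
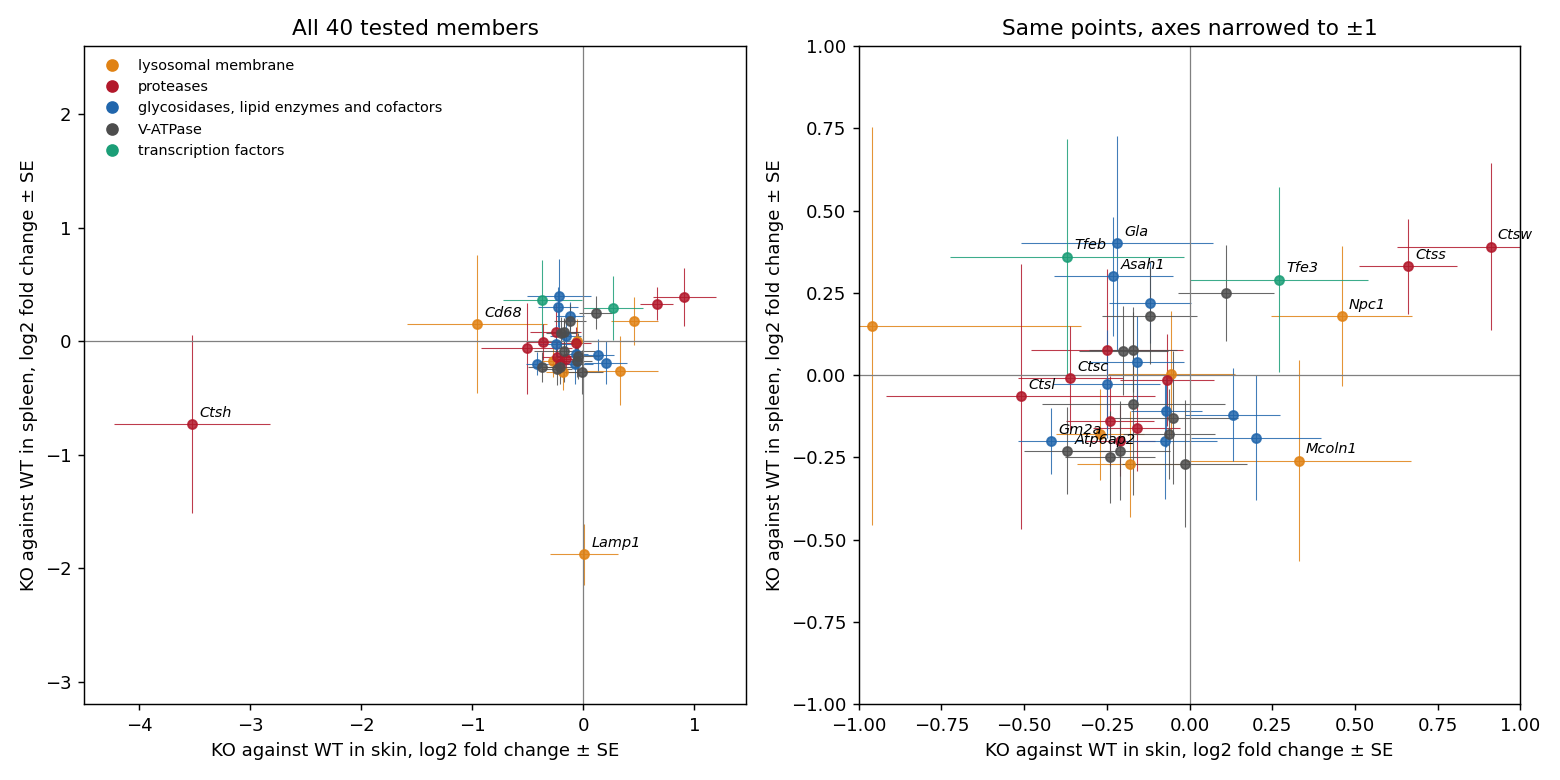
Log2 fold change of KO against WT in skin (x axis) and in spleen (y axis) for the 40 tested lysosomal genes, with bars of 1 SE and colours by role. The right panel narrows the axes to 1 in either direction, which leaves out Ctsh (-3.52 in skin) and Lamp1 (-1.88 in spleen) and clips some bars. Most points lie left of 0 in skin, and Ctss and Ctsw lie to the upper right.

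Skin and spleen Tregs differed in more lysosomal genes than KO and WT Tregs did. In WT Tregs, 15 of the 40 genes were higher in skin than in spleen and 7 were lower, against 16.6% and 15.2% of all genes. Their median log2 difference was 0.32, against -0.041 over all genes. The higher group held 5 of 10 proteases (Ctsa, Ctsb, Ctsh, Ctsz and Lgmn), 5 of 10 glycosidases, lipid enzymes and cofactors (Gm2a, Grn, Gla, Hexa and Asah1), 4 of 11 V-ATPase genes (Atp6ap1, Atp6ap2, Atp6v1a and Atp6v1h) and Lamp2. The lower group held Lamp1, Mcoln1, Ctss, Ctsw, Lipa, Gusb and Atp6v1d. In KO Tregs, 14 were higher and 6 lower, against 16.3% and 12.7% of all genes, with a median of 0.20 (all genes -0.032).

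Gm2a had the smallest p among them. It stood at 2820 and 2740 CPM in WT skin against 476 and 423 in WT spleen, so all skin libraries were several times higher. Its log2 difference was 2.63 ± 0.105 in WT and 2.40 ± 0.104 in KO Tregs (edgeR adjusted p = 3.87e-12 and 1.09e-11). Grn, which encodes progranulin, a secreted glycoprotein that is cleaved to granulins in lysosomes, had 164 and 151 CPM in WT skin and 139 and 161 in KO skin. In spleen it had 32.1 and 40.4 in WT and 30.5 and 32.0 in KO. The log2 difference was 2.11 ± 0.169 in WT and 2.24 ± 0.171 in KO Tregs (edgeR adjusted p = 3.27e-08 and 1.81e-08), and the genotypes overlapped in skin. The macrophage and monocyte markers were not higher in skin (5.78 to 16.5 CPM) than in spleen (6.30 to 33.0). The dendritic and Langerhans list was higher in skin (119 to 191 against 35.3 to 59.6), with Epcam at 93.8 to 144 against 20.6 to 47.9. So were the mast cell and granulocyte list (14.3 to 20.2, mostly Kit, against 0.927 to 4.03) and the fibroblast list (7.29 to 15.4 against 1.18 to 5.15). The part of these lists in the tissue differences was not tested. Gla, the α-galactosidase A gene whose start window holds 2 CLEAR cores, had 29.1 and 32.0 CPM in libraries from WT skin, 26.2 and 25.9 from KO skin, 7.72 and 6.58 from WT spleen, and 11.3 and 8.07 from KO spleen. Its log2 difference was 2.01 ± 0.316 in WT and 1.38 ± 0.307 in KO Tregs (edgeR adjusted p = 9.35e-05 and 0.00244).

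Among membrane proteins, the LAMP genes differed between tissues in opposite directions in WT. Lamp2, needed for the fusion of autophagosomes with lysosomes, had 195 and 191 CPM in libraries from WT skin, 153 and 167 from KO skin, 84.9 and 99.0 from WT spleen, and 82.0 and 79.7 from KO spleen. Every skin library was above every spleen library (1.06 ± 0.136 in WT and 0.98 ± 0.137 in KO on the log2 scale, edgeR adjusted p = 9.94e-06 and 2.93e-05). Lamp1 was lower in skin than in spleen in WT (-2.31 ± 0.278, edgeR adjusted p = 4.96e-06) but not past the threshold in KO (-0.42 ± 0.285, edgeR adjusted p = 0.294). Mcoln1, the gene of a lysosomal cation channel that also holds a CLEAR core, was lower in skin, at 8.63 and 22.1 CPM in libraries from WT skin, 21.1 and 16.6 from KO skin, 41.7 and 42.9 from WT spleen, and 38.0 and 32.5 from KO spleen. The log2 differences were -1.47 ± 0.329 and -0.88 ± 0.321 (edgeR adjusted p = 0.00239 and 0.0486). Laptm5, Laptm4a, Npc1 and Cd68 passed in neither genotype.

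Among proteases, the asparaginyl endopeptidase gene Lgmn had 153 and 112 CPM in libraries from WT skin, 98.8 and 124 from KO skin, 58.3 and 34.1 from WT spleen, and 55.0 and 43.2 from KO spleen. Its log2 difference was 1.5 ± 0.240 in WT and 1.17 ± 0.239 in KO Tregs (edgeR adjusted p = 0.000231 and 0.0019). Ctsz had 255 and 240 CPM in libraries from WT skin, 224 and 196 from KO skin, 152 and 123 from WT spleen, and 123 and 127 from KO spleen. For both genes the skin libraries did not overlap those of spleen. Ctsw and Ctss ran the other way. Ctsw had 139 and 137 CPM in spleen of WT and 173 and 189 in that of KO, above all skin libraries, for log2 differences of skin against spleen of -1.79 ± 0.278 in WT and -1.26 ± 0.263 in KO Tregs (edgeR adjusted p = 0.000582 and 0.00424). For Ctss they were -0.74 ± 0.147 and -0.42 ± 0.144 (edgeR adjusted p = 0.000844 and 0.0374). The CD8 T and NK cell markers, at 8.99 to 31.8 in skin and 22.9 to 30.8 in spleen, overlapped between tissues, and macrophage and monocyte markers were at 6.30 to 33.0 in spleen. Their part in these 2 differences was not tested.

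Of the 11 V-ATPase genes of the set, the 4 called higher in WT skin encode accessory proteins or subunits of the cytosolic part of the pump, which hydrolyses ATP. Atp6ap2 was at 121 and 122 CPM in spleen of WT and 96.8 and 110 in that of KO, below all skin libraries, for log2 differences of 0.92 ± 0.130 in WT and 0.78 ± 0.131 in KO Tregs (edgeR adjusted p = 2.98e-05 and 0.000188). Atp6v1a, the catalytic subunit of the cytosolic part, had 164 and 154 CPM in libraries from WT skin, 145 and 148 from KO skin, 84.9 and 101 from WT spleen, and 116 and 94.9 from KO spleen. The log2 differences were 0.77 ± 0.146 and 0.48 ± 0.145 (edgeR adjusted p = 0.00057 and 0.0196). Atp6v1d, a subunit of the central stalk, was lower in skin in both genotypes, at -0.37 ± 0.131 and -0.62 ± 0.131 (edgeR adjusted p = 0.0378 and 0.00164). Atp6v0d1, Atp6v1b2, Atp6v1c1 and Atp6v1e1 passed in neither genotype.

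Of the 22 genes called in WT and the 20 called in KO, 17 were shared, 12 higher and 5 lower in skin, which is 77.3% of the WT calls and 85% of the KO calls. Over all genes tested, 2529 calls were shared, 64.1% of the 3944 in WT and 70.3% of the 3596 in KO, and the difference between these shares and those of the lysosomal genes was not tested. Asah1, Atp6ap1, Ctsh, Gusb and Lamp1 were called in WT alone, and Atp6v0b, Atp6v0c and Psap in KO alone. Since none of the 40 genes passed the interaction test, the tissue difference of these 8 was not shown to differ between genotypes. Ctsh had 2.34 and 0.286 CPM in spleen of WT and 0 and 1.19 in that of KO, so the WT difference of 4.27 ± 0.735 on the log2 scale (edgeR adjusted p = 0.000743) rests on the WT skin libraries that the genotype comparison also used. Atp6ap1, an accessory protein, had 270 and 241 CPM in libraries from WT skin, 238 and 205 from KO skin, 206 and 164 from WT spleen, and 199 and 191 from KO spleen, in the same order in both genotypes. The β-glucuronidase gene Gusb had 63.1 and 54.1 CPM in libraries from WT skin, 78.7 and 56.1 from KO skin, 93.8 and 87.3 from WT spleen, and 69.9 and 88.3 from KO spleen. Its KO skin and spleen libraries overlapped.

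Of the genes called in KO alone, Atp6v0b, of the membrane-embedded proton channel, had 75.5 and 63.3 CPM in libraries from WT skin, 69.0 and 68.8 from KO skin, 50.5 and 59.0 from WT spleen, and 41 and 49.1 from KO spleen. Atp6v0c, of the same ring, had 53.3 and 50.9 CPM in libraries from WT skin, 50.5 and 50.1 from KO skin, 36.5 and 38.1 from WT spleen, and 34.8 and 33.5 from KO spleen. Skin was above spleen in both genotypes for both genes. Psap had 183 and 181 CPM in libraries from WT skin, 156 and 179 from KO skin, 199 and 183 from WT spleen, and 217 and 228 from KO spleen. The tissues were close in WT, and in KO both skin libraries were below both spleen libraries.

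Tfeb and Tfe3 passed no test. Tfeb had 21.7 and 18.1 CPM in libraries from WT skin, 19 and 11.5 from KO skin, 9.13 and 14.6 from WT spleen, and 13.2 and 17.3 from KO spleen. The log2 difference of skin against spleen was 0.74 ± 0.357 in WT (edgeR adjusted p = 0.128) and 0.00074 ± 0.322 in KO (edgeR adjusted p = 0.999). Tfe3 had 39.0 and 36.3 CPM in libraries from WT skin, 31.4 and 59.7 from KO skin, 21.8 and 23.2 from WT spleen, and 29.9 and 25.4 from KO spleen. Every Tfe3 value in skin was above every value in spleen, with log2 differences of 0.73 ± 0.279 and 0.71 ± 0.272 just outside the threshold (edgeR adjusted p = 0.0532 and 0.0608). Of the 6 genes whose start windows hold the CLEAR core, Gla, Atp6v1a and Ctsa were higher in WT skin than in WT spleen, Mcoln1 was lower, and Ctsd and Atp6v0d1 did not pass.

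**Figure D4:**
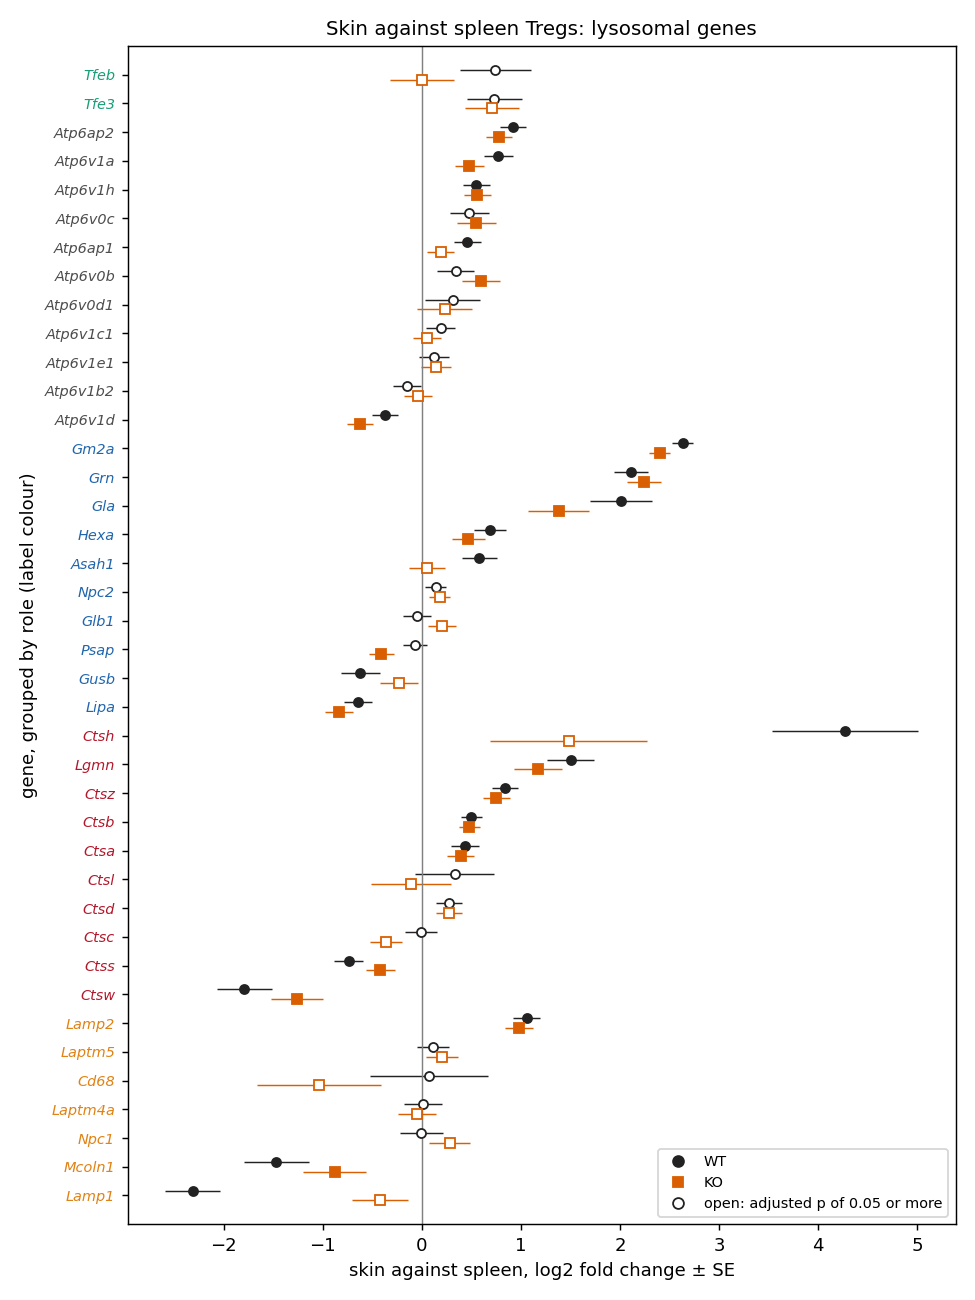
Log2 fold change of skin against spleen with bars of 1 SE for the 40 tested lysosomal genes, grouped by role, in WT (circles) and KO (squares), where filled symbols passed an edgeR adjusted p of 0.05. Gm2a, Grn and Gla lie far right of 0 in both genotypes, and Lamp1 lies far left in WT (-2.31) and close to 0 in KO (-0.42).

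Other genes of the lysosomal system were counted for comparison. Of 92 such genes tested, 1 passed in 1 of the genotype comparisons, the average over both tissues. There, 0.298% of all genes were called higher and 0.491% lower. The gene, Igf2r, encodes the cation-independent mannose 6-phosphate receptor that carries newly made hydrolases to lysosomes. It rose in KO (0.51 ± 0.112 on the log2 scale, edgeR adjusted p = 0.0417). It had 29.4 and 34.5 CPM in libraries from WT skin, 44.7 and 40.4 from KO skin, 296 and 287 from WT spleen, and 371 and 511 from KO spleen, so KO was above WT in each tissue. It was also far lower in skin than in spleen (-3.18 ± 0.167 in WT, edgeR adjusted p = 1.19e-10).

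Between the tissues in WT, 5 of 35 further lysosomal enzymes and membrane proteins were higher in skin and 2 lower. Those of smallest p were the endolysosomal cation channel gene Tpcn1 (-2.23 ± 0.256), the arylsulfatase gene Arsb (1.49 ± 0.276) and the acid sphingomyelinase gene Smpd1 (0.78 ± 0.168). Of 7 further V-ATPase subunits, 2 were higher and 1 lower. Both genes of smallest p encode the a subunit of the membrane part, Atp6v0a2 being lower in skin (-0.83 ± 0.176) and Atp6v0a1 higher (1.27 ± 0.305), with Atp6v0e next (0.39 ± 0.133). Of 17 genes of the lysosomal mTORC1 platform and the regulators of Tfeb, 4 were higher and 13 did not pass. Rheb (0.71 ± 0.147), Flcn (0.62 ± 0.198) and Fnip1 (1.00 ± 0.322) led them, the first an activator of mTORC1 and the others partners in a complex that acts on Rag GTPases. Of 12 sorting genes, 3 were higher and 3 lower, with the adaptor gene Ap1s1 (0.84 ± 0.150) and Gnptg (1.06 ± 0.194), a subunit of the enzyme that makes the mannose 6-phosphate tag, after Igf2r. Of 21 autophagy genes, 5 were higher and 1 lower, led by the cargo receptor gene Sqstm1 (1.02 ± 0.098), Wipi2 (-1.67 ± 0.240) and Gabarap (0.81 ± 0.144). These shares stand beside 16.6% higher and 15.2% lower over all genes.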

How the data were processed

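The deposited table holds raw counts per gene symbol for 8 libraries of polyadenylated RNA, made by the authors with STAR 2.7.3a and featureCounts on mm10, per the submitters' processing notes, from paired 25-base reads, per the labels' protocols. Annotation, strandedness and handling of multi-mapping reads were not given in the sources used here. From these counts, edgeR 4.0.16 (R 4.3.3) kept 12414 of 55011 genes with filterByExpr (minimum count 10), scaled libraries by TMM and fitted 1 coefficient per group over all 8 libraries with the robust quasi-likelihood model (prior count 2). Benjamini-Hochberg adjustment ran over all 12414 genes, with a threshold of 0.05, and SE is the absolute log2 fold change over the square root of F. The biological coefficient of variation was 17.5%. Replicates of a group differed by more than counting noise (chi-square of 4.22 to 6.76 per degree of freedom). The model was tested on simulated data. Exon lengths came from GENCODE M21 and start windows from RefSeq, both on GRCm38. The genes of the set, the other lists and the tests were chosen with earlier results of these data known. Per-library values are given for genes past the threshold in a genotype comparison or the interaction, the 4 of smallest p in each, the 10 of smallest p in skin against spleen in WT, those whose tissue call differed between WT and KO, and Tfeb and Tfe3; Mcoln1 was added after its values were seen. Other lists are named by their genotype calls and their 3 smallest p between tissues in WT. Alternatives were 2 other scalings, 2 other count filters, DESeq2 1.42.0, limma-voom (limma 3.58.1), a fit on the compared groups alone, a replicate block and leaving out each of the 8 libraries.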

Additional observations from a re-analysis of the deposited data

How the results depend on the processing

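Alternatives numbered 16, or 15 for the averaged effect and the difference of the genotype effect. Over the 6 comparisons, the 49 calls among lysosomal genes kept their sign in each alternative, as did the 47 calls of the other lists. Of 191 tests of lysosomal genes that did not pass, 75 changed sign in at least 1 alternative, among them Lamp1 in skin (-0.16 to 0.16), Lamp1 between tissues in KO (-0.77 to 0.044) and Tfeb between tissues in KO (-0.40 to 0.31). Of the lysosomal genes called between skin and spleen, 16 of 22 in WT and 10 of 20 in KO passed in every alternative, whereas no genotype call did. Of 40 genes, the calls as reported were 3 in skin, 1 in spleen, 3 averaged over both tissues, 0 for the difference of the genotype effect, 22 between tissues in WT and 20 in KO. Without the low-count filter 5 were called averaged over both tissues and 1 for the difference of the genotype effect, where DESeq2 also called 1 (Lamp1 in both). In limma-voom 1 was called in skin and 1 averaged over both tissues. Leaving out 1 library at a time gave 0 to 3 calls in skin, 0 to 1 in spleen, 0 to 3 averaged, 0 to 1 for the difference and 12 to 20 between tissues in KO. The call for the difference was Ctsw with WT skin replicate 2 left out (1.18, edgeR adjusted p = 0.0219) and Lamp1 without KO spleen replicate 1. Leaving 1 library in a group assumes that it varies like the other groups. The set's median log2 change in spleen, -0.076, was 0.0051 without WT spleen replicate 1.

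Over all genes, the counts of 111 in skin, 35 in spleen, 98 averaged and 12 for the difference became 344, 154, 288 and 233 without the low-count filter. DESeq2 called 77 in spleen and 81 for the difference, and limma-voom 59 for the difference. Without 1 library, the counts ran from 29 to 209, 7 to 119, 49 to 142 and 1 to 146. With upper-quartile scaling, 52 of 116 calls in skin were higher. The cause was not tested, except that leaving out a library also leaves fewer samples.

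With a replicate block, the lysosomal calls were 2 in skin, 1 in spleen, 2 averaged, 0 for the difference, 22 in WT and 18 in KO. Over all genes the block gave 135, 51, 109, 16, 3911 and 3584 calls, against 111, 35, 98, 12, 3944 and 3596 without it. The labels used here do not say whether same-numbered libraries share an animal. Correlations of their deviations from the group means were 0.0283 to 0.112. Without sex-linked genes each correlation was lower, at -0.0314 to 0.0518, so sex-linked genes held part of the shared deviation. Whether the replicate number goes with the sex of the animals was not tested. At these depths, genes at a few counts, such as Ctsh outside WT skin, carry wide errors.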
